A study of Mus musculus with 9 samples.

Results

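Major histocompatibility complex (MHC) class I and antigen processing genes were described in embryonic mouse cortex as a family whose expression may differ with the genetic background of the mice. They were chosen by symbol as 10 genes, namely the heavy chains *H2-K1*, *H2-D1* and *H2-T23*, the light chain *B2m*, the transporter and loading genes *Tap1*, *Tap2* and *Tapbp*, and the proteasome subunits *Psmb8*, *Psmb9* and *Psmb10*. Of the 10 genes, 7 were listed among the 14670 genes of the table, and *Tap2*, *Psmb8* and *Psmb9* were not analysed here.

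MHC class I molecules sit on the cell surface and show peptides from inside the cell to cytotoxic T cells, and in the brain they are also known for roles in synapse development. Each pairs a polymorphic heavy chain with the light chain that *B2m* encodes, the proteasome cuts the peptides, the TAP transporter carries them into the endoplasmic reticulum, and tapasin (*Tapbp*) holds the empty molecule beside TAP until a peptide is bound. The heavy chain genes lie in the H2 region, which differs strongly between mouse strains in sequence and in the number of genes it carries.

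RNA from cerebral cortex at embryonic day 16.5 was sequenced in 9 libraries, 3 for each of 3 genotypes. The sample labels give the genotypes as Control +/+, Fzd3 -/- mutant and Celsr3 -/- mutant, where *Fzd3* encodes a Frizzled receptor and *Celsr3* an atypical cadherin. Per the methods, both mutants were kept on a mixture of the C57Bl/6 and CD1 strains and the controls were littermates that could be wild type or heterozygous, so that the +/+ of the labels and the methods differ, and the strain origin of the H2 region in each embryo is not given in the sources used here. The *Fzd3* mutant allele lacks exon 3, which in the conditional allele is the part that Cre removes. The labels name Trizol for the extraction of the RNA and the methods name an RNeasy kit. Nothing states that the 3 libraries of a genotype came from separate litters, so that P values measure the spread between these samples. The numbers of the libraries are 1 to 3 for controls and for *Fzd3* mutants, and 1, 2 and 4 for *Celsr3* mutants.

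Expression is given in CPM (read counts scaled to library size) as deposited. The smallest step between values, taken as 1 read, gave 39857305 to 61637621 reads on listed genes in the controls, 42963627 to 52249430 in the *Fzd3* mutants and 54974978 to 69600589 in the *Celsr3* mutants. At these depths 3 reads correspond to 0.0427 to 0.0752 CPM, which covers counting error only. Genotypes were compared by limma on log2(CPM + 0.5) in a single fit of the 9 libraries, two-sided, with Benjamini-Hochberg adjustment over the 14670 genes and a threshold of 0.05. Log2 fold changes are on this scale, where changes of genes with few reads come out smaller than they are.

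The mutated genes were examined first. *Celsr3* mRNA was at 196, 243 and 214 (controls), 253, 213 and 255 (*Fzd3* mutants) and 122, 139 and 118 CPM (*Celsr3* mutants). All 3 *Celsr3* mutant libraries were below all other libraries, and the fall from control passed the test (log2 fold change -0.78 with a standard error of 0.0910, limma adjusted P = 0.0018). With the library number as a block, its limma adjusted P was 0.0699. Only *Celsr3* mutant 4 has the number 4, so that this block fits that library exactly. Comparisons with the *Celsr3* mutants then rest on *Celsr3* mutant 1 and *Celsr3* mutant 2. *Fzd3* mRNA was at 58.0, 67.7 and 46.9 (controls), 46.5, 39.8 and 59.6 (*Fzd3* mutants) and 52.1, 61.1 and 54.8 CPM (*Celsr3* mutants). These ranges overlapped (*Fzd3* mutant against control, log2 fold change -0.24 with a standard error of 0.147, limma adjusted P = 0.24), so that by this mRNA alone *Fzd3* mutants and controls could not be sorted. Without *Fzd3* mutant 3, the limma adjusted P of *Fzd3* was 0.0457, and over all 19 alternative fits it lay between 0.0457 and 0.633. Exon 3 has no value of its own, as genes are given as a whole.

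Markers of the tissue named by the labels were listed, as were those of other cells, so that listing alone does not identify the tissue. Of 7 genes of cortical neurons 6 were listed, with *Neurod6* the most abundant. In controls the neuronal list summed to a mean of 2434 CPM, against 203 CPM for the 11 genes of endothelium. All 7 apical and all 3 basal progenitor genes written were listed. Among the markers of other cells, 12 of 13 genes of microglia and macrophages were listed (*Ptprc* was not), 11 of 11 of endothelium, 6 of 6 of pericytes, 4 of 5 of meninges and 6 of 8 of red blood cells.

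A pair of libraries stood apart in some genes that matter here, and several results that rest on them are given with and without them. Control 1 differed from the mean of the other controls by more than 1 on the log2 scale at 46 of the 14670 genes (0.314%) and at 4 of the 107 listed genes of the H2 region (3.74%). Controls 2 and 3, measured in the same way, each differed at 77 genes (0.525%), and at 3 (2.80%) and 2 (1.87%) genes of the region, so that over all genes control 1 did not stand out. Control 1 is part of the mean that controls 2 and 3 were set against. Their genes of the region were *H2-T24* (control 2 only), *BC023719* and *H2-T10*, so these counts in the region are not independent of control 1. Of the mutants, *Fzd3* mutant 3 differed at 1 gene of the region and the others at 0. The 4 genes of control 1 were *H2-D1*, *H2-T10*, *H2-T24* and *BC023719*, chosen after their values were seen. In *Celsr3* mutant 4 the 4 listed meningeal genes summed to 171 CPM, against 8.98 to 19.3 CPM in the other 8 libraries. *Col3a1*, their most abundant gene, was at 87.6 CPM there and at no more than 6.86 CPM elsewhere.

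Counted over the listed genes of the family, 1 of 7 passed the test between *Fzd3* mutants and controls (*H2-D1*, higher), where 29.8% of all 14670 genes passed. Between *Celsr3* mutants and controls, limma called 0 of 7, where 0.307% of all genes passed, and 2 of 7 (*H2-K1* and *H2-D1*, both lower) had an unadjusted P under 0.05, as did 800 of all genes. In the direct comparison of the mutants, 2 of 7 passed (*H2-D1* and *H2-K1*, both higher in the *Fzd3* mutants), where 29.6% of all genes passed. The libraries of *Fzd3* mutants and controls did not overlap for 2 of 7 genes (*H2-D1* and *Tap1*), against 43.8% of all genes. Those of *Celsr3* mutants and controls did not overlap for 3 of 7 (*H2-K1*, *H2-D1* and *Tap1*), against 10.4% of all genes. The libraries of the mutants did not overlap with each other for 2 of 7 (*H2-K1* and *H2-D1*), against 44.9%. In both comparisons with the *Fzd3* mutants these shares were no higher than those over all genes. The median log2 fold change of the 7 genes was 0.15 in *Fzd3* mutants against controls, 0.04 in *Celsr3* mutants against controls and 0.08 between the mutants, and over all genes each median was within 0.01 of 0. The comparisons with control share the 3 control libraries.

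**Figure D1:**
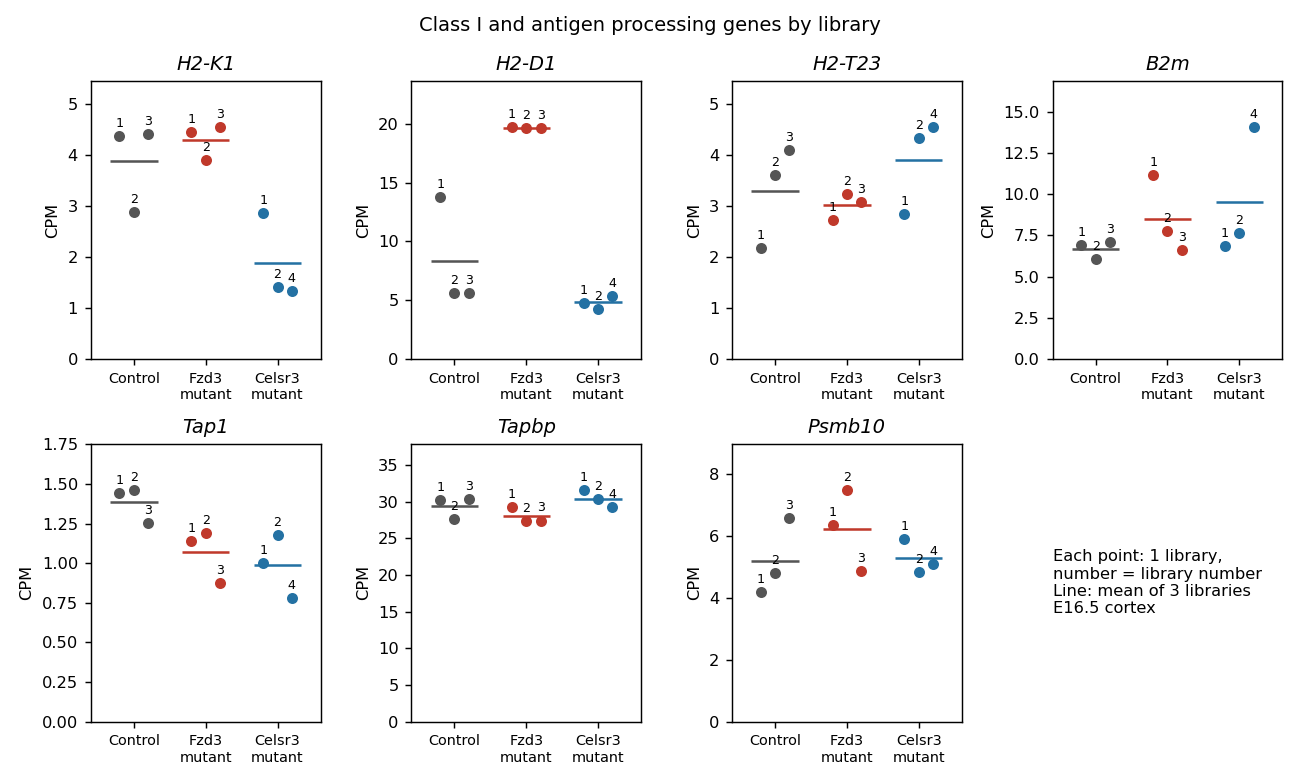
CPM of the 7 listed class I and antigen processing genes in each library (points, with library numbers), with the mean of 3 libraries as a line, for each genotype. *H2-D1* was near 19.7 CPM in all 3 *Fzd3* mutants, and control 1 (13.7 CPM) lay between these and the other 5 libraries.

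Levels of different genes were compared per kb of annotated exon. In controls the order was *Tapbp* (8.10 ± 0.438 CPM per kb, s.d., n = 3), *B2m* (7.78 ± 0.639), *H2-D1* (3.22 ± 1.82), *Psmb10* (3.04 ± 0.728), *H2-K1* (1.32 ± 0.296), *H2-T23* (1.14 ± 0.344) and *Tap1* (0.253 ± 0.0211). *Tapbp* and *B2m* differed by less than their spread, as did *H2-D1* and *Psmb10*, and *H2-K1* and *H2-T23*. In *Fzd3* mutants *H2-D1* stood at 7.62 ± 0.0183 CPM per kb (s.d., n = 3), beside *Tapbp* at 7.72 ± 0.308 and below *B2m* at 9.90 ± 2.75, and these 3 means were within the spread of *B2m*. *Psmb10* (3.65 ± 0.772), *H2-K1* (1.46 ± 0.117), *H2-T23* (1.04 ± 0.0923) and *Tap1* (0.195 ± 0.0304 CPM per kb) followed. In *Celsr3* mutants *H2-D1* (1.86 ± 0.220 CPM per kb) ranked below *Psmb10* (3.09 ± 0.316), and *H2-K1* (0.638 ± 0.294) below *H2-T23* (1.35 ± 0.322), while *B2m* (11.1 ± 4.60) and *Tapbp* (8.38 ± 0.314) differed by less than the spread of *B2m*. *Tap1* was the lowest there too, at 0.180 ± 0.0362 CPM per kb. On the scale of CPM, not corrected for length, 54.3% of listed genes were below *Tapbp* in controls, 28.9% below *H2-D1*, 18.3% below *H2-K1* and 6.28% below *Tap1*.

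Promoters of the heavy chains and of *B2m* are shown because these genes are known to share control elements, so that members that move together or apart can be read beside their sequences. RefSeq entries of build GRCm38.p6 were found for 9 of the 10 genes (not for *Tap2*), and the 200 bases before the start site are printed in the direction of the gene. Capitals mark matches, on either strand, to AANTGAAA (of the type bound by interferon regulatory factors), GGNNTTNCC (of the type bound by NF-kB), CCAAT and TGACG. The *H2-K1* stretch is chr17:34000348-34000547 (minus strand), that of *H2-D1* chr17:35262894-35263093 (plus), that of *H2-T23* chr17:36032702-36032901 (minus) and that of *B2m* chr2:122147487-122147686 (plus).
H2-K1: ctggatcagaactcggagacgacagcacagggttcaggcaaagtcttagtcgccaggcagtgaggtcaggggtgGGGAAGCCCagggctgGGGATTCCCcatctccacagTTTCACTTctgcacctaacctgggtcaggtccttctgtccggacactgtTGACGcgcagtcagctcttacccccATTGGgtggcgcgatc
H2-D1: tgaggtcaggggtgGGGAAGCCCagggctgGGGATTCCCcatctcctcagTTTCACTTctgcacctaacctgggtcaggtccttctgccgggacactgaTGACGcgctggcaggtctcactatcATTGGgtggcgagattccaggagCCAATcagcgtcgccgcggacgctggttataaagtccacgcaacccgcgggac
H2-T23: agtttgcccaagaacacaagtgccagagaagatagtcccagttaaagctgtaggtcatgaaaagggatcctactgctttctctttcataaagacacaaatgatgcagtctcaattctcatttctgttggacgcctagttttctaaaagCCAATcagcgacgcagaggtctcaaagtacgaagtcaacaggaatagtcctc
B2m: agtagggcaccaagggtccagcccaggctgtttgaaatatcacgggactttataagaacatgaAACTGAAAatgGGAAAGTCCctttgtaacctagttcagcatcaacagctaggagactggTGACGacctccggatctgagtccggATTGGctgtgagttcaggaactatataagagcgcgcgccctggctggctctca
Each of *H2-K1*, *H2-D1* and *B2m* held all 4 motifs, and *H2-T23* held CCAAT alone. In 32851 promoters of the same length, AANTGAAA was found in 4.42%, GGNNTTNCC in 11.0%, CCAAT in 29.3% and TGACG in 15.7%, and AANTGAAA and GGNNTTNCC together in 0.478%. The AANTGAAA match lay 90 to 83 bases before the start site in *H2-K1* and 150 to 143 bases before it in *H2-D1*, with a GGNNTTNCC match starting 20 bases further from the start site in both. In the RefSeq table *H2-K1* has 2 start sites, of which the one furthest 5′ was used. These matches are a description of the letters in the window, and binding was not measured.

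*H2-D1*, a classical heavy chain (XLOC_013313, chromosome 17 of GRCm38, 35262730 to 35267499, plus strand), was the member that differed most. Its mRNA was at 13.7, 5.60 and 5.59 (controls), 19.7, 19.7 and 19.6 (*Fzd3* mutants) and 4.79, 4.25 and 5.38 CPM (*Celsr3* mutants). The 3 *Fzd3* mutants were above every other library, control 1 was more than 2 times as high as the other controls, and controls 2 and 3 were close to the *Celsr3* mutants. *H2-D1* rose in *Fzd3* mutants to 2.37 times the control mean (log2 fold change 1.32 with a standard error of 0.261, limma adjusted P = 0.00349). Without control 1 the log2 fold change was 1.73 (standard error 0.108, limma adjusted P = 9.8e-06), and over 19 alternative fits the call held in 19, with a limma adjusted P between 9.8e-06 and 0.016. Against the *Celsr3* mutants it was 4.09 times as high (log2 fold change 1.93 with a standard error of 0.261, limma adjusted P = 0.000445), also in 19 of 19 alternative fits. In *Celsr3* mutants against controls the libraries did not overlap, yet the difference did not pass the test (log2 fold change -0.61 with a standard error of 0.261, limma adjusted P = 0.884), and without control 1 it was -0.21 (limma adjusted P = 0.951).

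The spread of *H2-D1* within a genotype differed widely. Its coefficient of variation (n = 3) was 56.6% for controls, 0.240% for *Fzd3* mutants and 11.8% for *Celsr3* mutants, where the median over the 5262 genes with a mean of 10 to 50 CPM was 6.02%, 5.90% and 5.53%. With 848 to 1027 reads on *H2-D1* in the *Fzd3* mutants, counting alone gives 3.28%, so that these 3 values lay closer to each other than counting error usually allows. Of the 50-base stretches of annotated *H2-D1* transcripts, 12.8% also occur in another annotated gene, most often in *H2-Q1*. Reads could thus be shared between class I genes, and the value is uncertain by an amount that was not measured. The alleles of the strains can also differ from the reference sequence, and the effect of that on these counts was not tested.

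*H2-K1*, the other classical heavy chain of the family (XLOC_014025, chromosome 17, 33996017 to 34000347, minus strand), was lowest in the *Celsr3* mutants. Its mRNA was at 4.37, 2.89 and 4.41 (controls), 4.46, 3.91 and 4.54 (*Fzd3* mutants) and 2.87, 1.42 and 1.34 CPM (*Celsr3* mutants). Controls and *Fzd3* mutants overlapped, the *Celsr3* mutants were below both, and *Celsr3* mutant 1 (2.87 CPM) was next to control 2 (2.89 CPM). The mutants differed in the direct test, where *H2-K1* in *Fzd3* mutants was 2.30 times its level in *Celsr3* mutants (log2 fold change 1.07 with a standard error of 0.227, limma adjusted P = 0.00526). This call held in 18 of 18 alternative fits, with a limma adjusted P between 0.000713 and 0.0332. In *Celsr3* mutants against controls the log2 fold change was -0.92 (standard error 0.227, limma adjusted P = 0.293), which did not pass, and it passed in 1 of 18 alternative fits, the one without *Celsr3* mutant 1 (-1.21, limma adjusted P = 0.0195, within a range of 0.0195 to 0.999). In *Fzd3* mutants against controls it was 0.15 (standard error 0.227, limma adjusted P = 0.666), and without control 2 it was -0.03 (limma adjusted P = 0.946, the highest of a range from 0.526). Of its 50-base stretches, 9.63% are shared with another annotated gene. The Pearson correlation of *H2-K1* and *H2-D1* on log2(CPM + 0.5) was 0.70 over the 9 libraries, which share genotypes in groups of 3.

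*H2-T23* encodes a nonclassical heavy chain, Qa-1, that presents leader peptides of other class I chains (XLOC_014114, chromosome 17, 36029773 to 36032855, minus strand). It was at 2.18, 3.61 and 4.09 (controls), 2.72, 3.24 and 3.07 (*Fzd3* mutants) and 2.84, 4.34 and 4.54 CPM (*Celsr3* mutants). The 3 genotypes overlapped, and control 1 was the lowest of all 9 libraries. No comparison passed the test, with log2 fold changes of -0.08 (*Fzd3* mutant against control, limma adjusted P = 0.816), 0.23 (*Celsr3* mutant against control, limma adjusted P = 1) and -0.31 (*Fzd3* against *Celsr3* mutant, limma adjusted P = 0.304), each with a standard error of 0.211. Without control 1 the log2 fold change of *H2-T23* was -0.31 in *Fzd3* mutants against controls (limma adjusted P = 0.258). In *Celsr3* mutants against controls it was -0.00336 in that fit (limma adjusted P = 0.999), so that its sign turned, and neither passed. The correlation of *H2-T23* with *H2-K1* over the 9 libraries was -0.69 and with *H2-D1* -0.62, so that the 3 heavy chains did not vary together. For *H2-T23*, 14.5% of its 50-base stretches occur in another annotated gene.

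**Figure D2:**
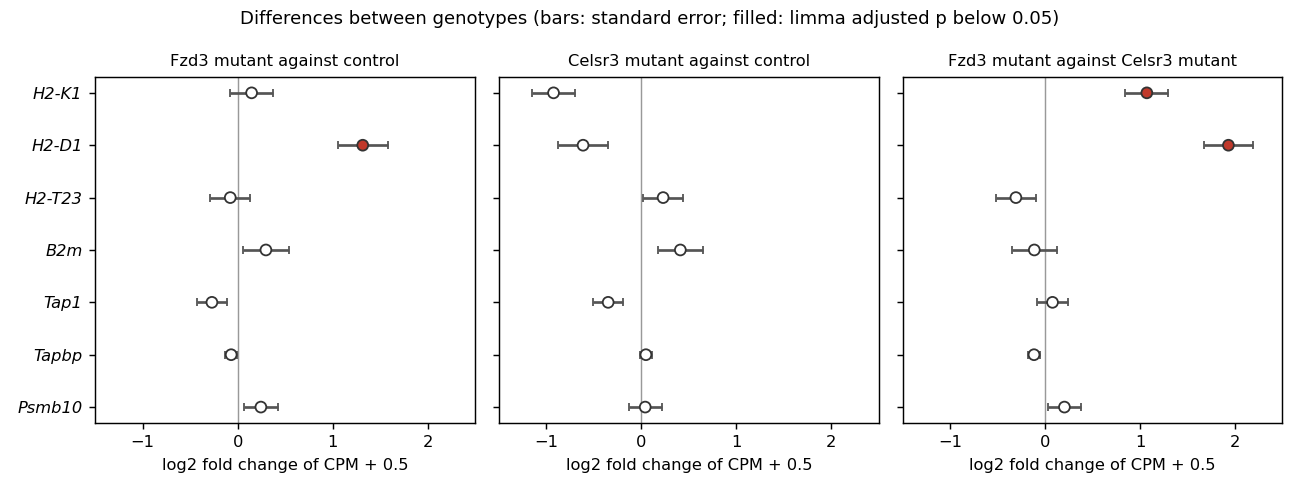
Log2 fold changes of the 7 listed genes in the 3 comparisons (points), with standard errors as bars, on the scale of log2(CPM + 0.5), and filled points where the limma adjusted P was below 0.05. *H2-D1* passed in both comparisons with the *Fzd3* mutants (1.32 and 1.93), and *H2-K1* in the direct comparison of the mutants (1.07).

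Other heavy chain genes and class I-like genes were taken from a list of 25, of which 8 were listed (*H2-Q4*, *H2-Q7*, *H2-T10*, *H2-T22*, *H2-T24*, *H2-M5*, *Cd1d1* and *Fcgrt*). In *Fzd3* mutants 1 of 8 was higher than in controls (*H2-T10*) and 0 lower (12.5%, against 29.8% of all genes), in *Celsr3* mutants limma called 0 and 0 had an unadjusted P under 0.05, and between the mutants 2 were higher in *Fzd3* mutants (*H2-T10* and *H2-M5*) and 0 lower (25%, against 29.6% of all genes). The median log2 fold change of the 8 was 0.20, -0.04 and 0.16 in the same order.

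*H2-T10*, annotated as a polymorphic pseudogene of the nonclassical T group (XLOC_014121, chromosome 17, 36115876 to 36121465, minus strand), divided the libraries into high and low ones. It was at 6.03, 0.378 and 0.201 (controls), 5.41, 5.77 and 5.21 (*Fzd3* mutants) and 0.484, 0.327 and 0.484 CPM (*Celsr3* mutants). Control 1 was at the level of the *Fzd3* mutants, and the other controls were at that of the *Celsr3* mutants. *H2-T10* in *Fzd3* mutants was 12.7 times its level in *Celsr3* mutants (log2 fold change 2.68 with a standard error of 0.628, limma adjusted P = 0.00851), a call that held in 18 of 18 alternative fits. Against controls it rose (log2 fold change 1.91 with a standard error of 0.628, limma adjusted P = 0.0406), but the libraries overlapped and the call was lost in 9 of 18 alternative fits, among them those without control 2, control 3, any 1 of the *Fzd3* mutants, *Celsr3* mutant 1 or *Celsr3* mutant 2 (limma adjusted P up to 0.143). Without control 1 the log2 fold change was 2.93 (limma adjusted P = 7.2e-06, the lowest of the 18). *H2-T10* lies 0.848 Mb from *H2-D1*, and the correlation of the 2 genes over the 9 libraries was 0.97.

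The antisense transcript *BC023719* (XLOC_013348, chromosome 17, 36111426 to 36117121, plus strand) overlaps *H2-T10* by 1246 bases. It was at 4.66, 0 and 0.0251 (controls), 4.06, 4.43 and 3.95 (*Fzd3* mutants) and 0.0334, 0 and 0.128 CPM (*Celsr3* mutants). The same 4 libraries were high, and the other 5 held fewer than 10 reads each. The difference between the mutants passed the test (log2 fold change 3.07 with a standard error of 0.683, limma adjusted P = 0.00657), and that from control (2.07, limma adjusted P = 0.0409) was lost in 9 of 18 alternative fits, without the same 7 single libraries as for *H2-T10* (limma adjusted P up to 0.149), and was 3.18 without control 1 (limma adjusted P = 6.2e-06). The use of strand in counting is not given in the sources used here, so reads of *BC023719* and *H2-T10* cannot be told apart where they overlap. Of the 50-base stretches of *H2-T10*, 50.4% occur in another annotated gene and 31.7% in *H2-T22*, so that its value is uncertain as well.

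*H2-T24* was at 0, 2.38 and 1.38 (controls), 0.209, 0.346 and 1.74 (*Fzd3* mutants) and 1.32, 1.81 and 1.79 CPM (*Celsr3* mutants). Control 1, *Fzd3* mutant 1 and *Fzd3* mutant 2 were low, *Fzd3* mutant 3 was not, and no comparison passed the test (limma adjusted P = 0.696, 1 and 0.239). Without control 1, the log2 fold change of *H2-T24* in *Fzd3* mutants against controls was -1.08 (limma adjusted P = 0.0953), which did not pass. In the same fit it was -0.13 in *Celsr3* mutants against controls (limma adjusted P = 0.999) and -0.95 between the mutants (limma adjusted P = 0.0894). *H2-T22*, a close relative of *H2-T10*, was between 5.08 and 7.21 CPM in all 9 libraries, without the gap seen for *H2-T10* (*Fzd3* mutant against control, log2 fold change -0.16, limma adjusted P = 0.258). *H2-M5* was at 2.51, 3.58 and 3.09 (*Fzd3* mutants) and 1.87, 2.47 and 1.89 CPM (*Celsr3* mutants) (log2 fold change 0.46 with a standard error of 0.160, limma adjusted P = 0.0486). This call was lost in 9 of 18 alternative fits, among them those without control 1, *Fzd3* mutant 2 or 3, or *Celsr3* mutant 1 or 4 (limma adjusted P up to 0.234). *H2-Q4* was between 5.84 and 7.43 CPM in the 9 libraries and *H2-Q7* between 0.513 and 2.04 CPM, and neither passed in any comparison, although *H2-Q7* was higher in *Fzd3* than in *Celsr3* mutants when *Celsr3* mutant 2 was left out (limma adjusted P = 0.0449, of 0.0449 to 0.25 over 18 alternative fits).

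**Figure D3:**
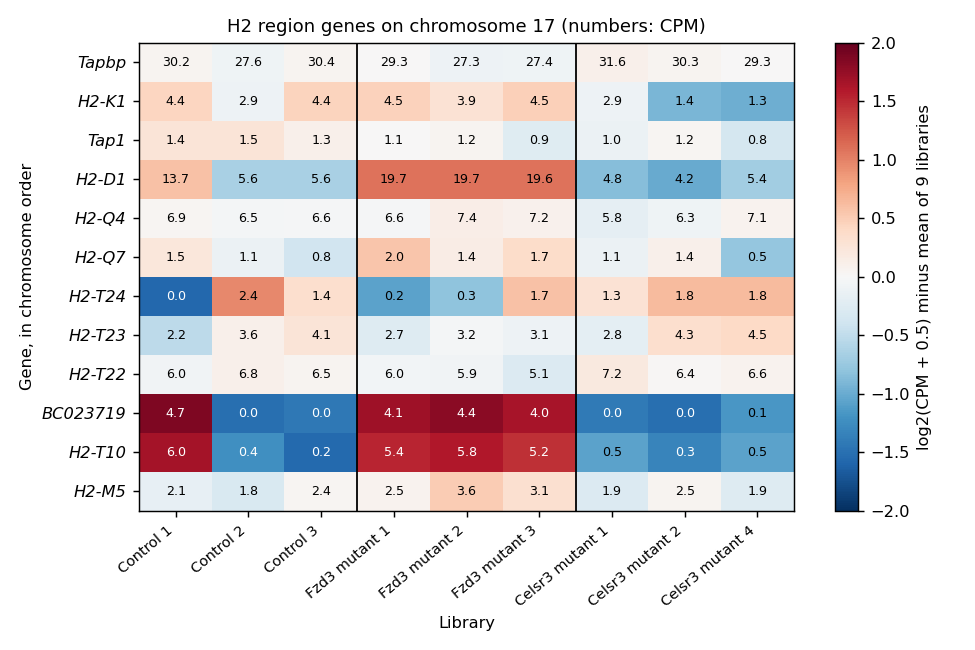
Heat map of 12 genes of the H2 region and its flank (rows, in chromosome order) in the 9 libraries (columns), coloured by log2(CPM + 0.5) minus the mean of the gene, with CPM written in each cell. *H2-D1*, *BC023719* and *H2-T10* were high in the 3 *Fzd3* mutants and in control 1, while *H2-K1* was lowest in *Celsr3* mutants 2 and 4.

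The H2 region was taken as chromosome 17 from 33415899 to 36532855 (3.12 Mb), which includes a margin of 0.5 Mb on each side of the outermost genes of the family. It holds 107 listed genes, 5 of them the genes described above (*H2-K1*, *H2-D1*, *H2-T23*, *Tap1* and *Tapbp*). Of the 102 neighbours, 30 differed between *Fzd3* mutants and controls (9 higher and 21 lower, 29.4%), a share close to the 29.8% of all genes. Between *Celsr3* mutants and controls limma called 0 of the 102, with 10 at an unadjusted P under 0.05. Over all 14670 genes, 0.307% were called there and 800 had an unadjusted P under 0.05. The libraries of *Celsr3* mutants and controls did not overlap for 20 of the 102, against 10.4% of all genes. Between the mutants 32 differed (8 higher and 24 lower in *Fzd3* mutants, 31.4%, against 29.6% of all genes), and without *Celsr3* mutant 4, 8 were higher and 15 lower. Among these neighbours, the largest log2 fold changes past the threshold in both comparisons with the *Fzd3* mutants were those of *BC023719*, *H2-T10* and *Lst1*. *Lst1*, a gene of leukocytes, was at 0.443, 0.673 and 0.477 (controls), 2.02, 1.97 and 1.36 (*Fzd3* mutants) and 0.584, 0.290 and 0.626 CPM (*Celsr3* mutants). All 3 *Fzd3* mutants were above the other 6 libraries, control 1 included (against control, log2 fold change 1.14 with a standard error of 0.200, limma adjusted P = 0.00178). *Lst1* lies 0.0743 Mb from *H2-D1*.

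*B2m*, the light chain of all class I molecules (XLOC_017414, chromosome 2, 122147686 to 122153083, plus strand), lies outside the H2 region. Its mRNA was at 6.94, 6.06 and 7.07 (controls), 11.2, 7.75 and 6.62 (*Fzd3* mutants) and 6.83, 7.64 and 14.1 CPM (*Celsr3* mutants). *Celsr3* mutant 4 and *Fzd3* mutant 1 were the highest, and the 3 genotypes overlapped. No comparison passed the test, with log2 fold changes of 0.30 (*Fzd3* mutant against control, limma adjusted P = 0.382), 0.41 (*Celsr3* mutant against control, limma adjusted P = 0.984) and -0.11 (*Fzd3* against *Celsr3* mutant, limma adjusted P = 0.759), each with a standard error of 0.240. Without *Celsr3* mutant 4 the difference between *Celsr3* mutants and controls was 0.11 and that between the mutants 0.19, and without *Fzd3* mutant 1 that between *Fzd3* mutants and controls was 0.10. *B2m* has no 50-base stretch in common with another annotated gene. The correlation of *B2m* over the 9 libraries was 0.04 with *H2-D1*, -0.41 with *H2-K1* and 0.28 with *H2-T23*.

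Markers of cells that carry much class I elsewhere were set beside these values. The 12 microglial and macrophage genes summed to 41.7, 47.8 and 46.1 (controls), 73.0, 69.4 and 54.9 (*Fzd3* mutants) and 47.6, 51.9 and 69.2 CPM (*Celsr3* mutants), with *Csf1r* the most abundant. The 11 endothelial genes summed to 201, 202 and 204 (controls), 272, 257 and 235 (*Fzd3* mutants) and 215, 195 and 264 CPM (*Celsr3* mutants), with *Slc2a1* the most abundant. In both lists *Fzd3* mutant 1 and *Celsr3* mutant 4 were the highest libraries of their genotype, as for *B2m*. The 6 pericyte genes summed to 82.1 to 84.2 CPM in the controls, 90.8 to 101 CPM in the *Fzd3* mutants and 82.7 to 103 CPM in the *Celsr3* mutants, with *Rgs5* the most abundant. The 6 red blood cell genes summed to 1765 to 2039 CPM in the controls, 1569 to 2443 CPM in the *Fzd3* mutants and 1584 to 2536 CPM in the *Celsr3* mutants, with *Hba-a1* the most abundant. A summed level does not show how the single genes of a list moved, which holds for the neuronal list too. The part of these cells in the results for *B2m* and the heavy chains was not tested. In cortex as a whole, fewer cells of a type and less RNA per cell cannot be told apart.

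Microglial genes rose in *Fzd3* mutants for 5 of 12 listed (*Lyz2*, *Trem2*, *Csf1r*, *C1qc* and *C1qa*, 41.7%) and fell for 0, and endothelial genes rose for 4 of 11 (*Flt1*, *Kdr*, *Cldn5* and *Egfl7*, 36.4%) and fell for 0, where 29.8% of all genes passed. *Lyz2*, which encodes a lysozyme of macrophages, was at 0.751, 0.838 and 0.778 (controls), 2.46, 2.22 and 2.62 (*Fzd3* mutants) and 1.45, 1.69 and 1.64 CPM (*Celsr3* mutants). All 3 groups were apart, and the rise in *Fzd3* mutants held in 18 of 18 alternative fits (log2 fold change 1.19 with a standard error of 0.133, limma adjusted P = 0.00013). *Flt1*, a receptor for vascular endothelial growth factor, was at 14.6, 13.7 and 14.8 (controls), 30.4, 24.2 and 24.5 (*Fzd3* mutants) and 14.0, 12.9 and 17.9 CPM (*Celsr3* mutants) (*Fzd3* mutant against control, log2 fold change 0.85 with a standard error of 0.121, limma adjusted P = 0.00054). The call of *C1qc* (limma adjusted P = 0.0197) was lost without control 1 or *Fzd3* mutant 1 or 2 (up to 0.0769 over 18 alternative fits), that of *C1qa* (limma adjusted P = 0.0274) without control 1 or 2 or *Fzd3* mutant 1 or 3 (up to 0.0942 over 18), and that of *Egfl7* (limma adjusted P = 0.0397) without any 1 control, any 1 *Fzd3* mutant or *Celsr3* mutant 1 (up to 0.115 over 19). Without control 1, 4 microglial and 3 endothelial genes rose. Among the other lists, 1 pericyte gene rose (*Abcc9*), 1 red blood cell gene fell (*Hbb-y*) and 0 meningeal genes passed in *Fzd3* mutants, where limma gave 1 meningeal gene an unadjusted P under 0.05, and without *Celsr3* mutant 4, 2 meningeal genes passed. The call of *Abcc9* (limma adjusted P = 0.016) was lost without control 2 (limma adjusted P up to 0.0642 over 19 alternative fits), and that of *Hbb-y* (limma adjusted P = 0.0331) without control 1, control 2 or any 1 of the *Fzd3* mutants (up to 0.127 over 18). In *Celsr3* mutants against controls limma called 0 genes of every one of these 5 lists, where 0.307% of all genes passed. The unadjusted P was under 0.05 for 4 of 12 microglial, 1 of 11 endothelial and 1 of 6 pericyte genes. It was so for 1 of 4 meningeal and 0 of 6 red blood cell genes, and for 800 of all 14670 genes. Between the mutants, 3 microglial, 2 endothelial and 2 pericyte genes were higher in *Fzd3* mutants (25%, 18.2% and 33.3% of these lists, against 29.6% of all genes) and 1 red blood cell gene was lower. Without *Celsr3* mutant 4, 4 microglial, 5 endothelial and 1 pericyte genes were higher and 0 red blood cell genes lower. Markers of cells native to the cortex changed as well in *Fzd3* mutants against controls. Here 5 of 7 apical and 3 of 3 basal progenitor genes fell and 0 rose. Of the 6 listed neuronal genes, 5 fell and 1 rose. Over all genes, 29.8% passed in either direction. Summed basal progenitor markers were at 295, 312 and 264 (controls), 155, 173 and 198 (*Fzd3* mutants) and 276, 319 and 327 CPM (*Celsr3* mutants).

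**Figure D4:**
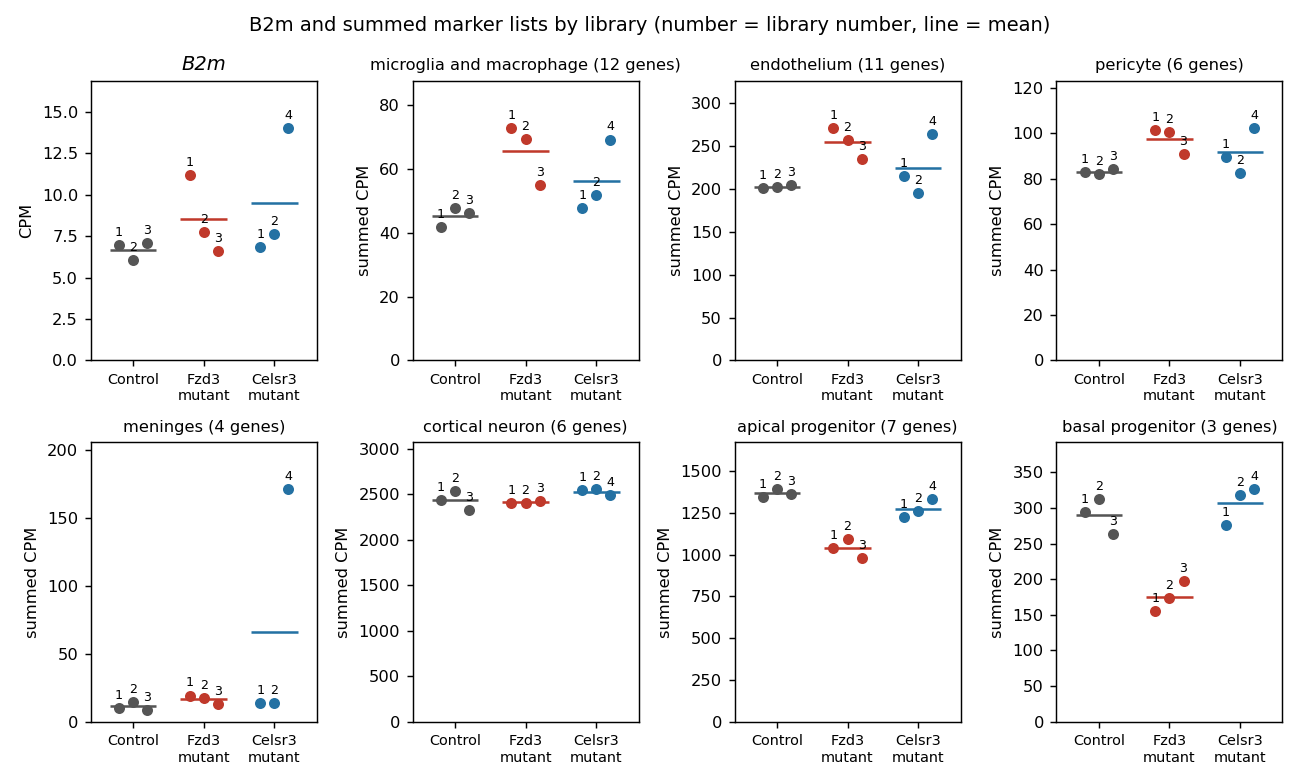
CPM of *B2m* and the summed CPM of 7 lists of cell type markers in each library (points, with library numbers), with the mean of 3 libraries as a line. *Celsr3* mutant 4 was highest for *B2m* (14.1 CPM) and for the meningeal list (171 CPM), and the basal progenitor list was lowest in the 3 *Fzd3* mutants (155 to 198 CPM).

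*Tap1*, a subunit of the peptide transporter (XLOC_013261, chromosome 17, 34187553 to 34197225, plus strand), was the least abundant member. It was at 1.45, 1.46 and 1.25 (controls), 1.14, 1.19 and 0.878 (*Fzd3* mutants) and 1.00, 1.18 and 0.783 CPM (*Celsr3* mutants). All 6 mutant libraries were below all 3 controls, and the mutants overlapped. The difference did not pass the test in *Fzd3* mutants (log2 fold change -0.27 with a standard error of 0.161, limma adjusted P = 0.231) or in *Celsr3* mutants (-0.35 with a standard error of 0.161, limma adjusted P = 0.927), and between the mutants it was 0.08 (limma adjusted P = 0.751). These values rest on 46 to 89 reads per library.

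*Tapbp*, or tapasin (XLOC_013249, chromosome 17, 33915899 to 33929292, plus strand), was the steadiest. It was at 30.2, 27.6 and 30.4 (controls), 29.3, 27.3 and 27.4 (*Fzd3* mutants) and 31.6, 30.3 and 29.3 CPM (*Celsr3* mutants). The 3 genotypes overlapped, and no comparison passed the test (log2 fold changes -0.07, 0.05 and -0.12, standard error 0.0611 each, limma adjusted P = 0.437, 1 and 0.178, in the order *Fzd3* mutant against control, *Celsr3* mutant against control and *Fzd3* against *Celsr3* mutant). *Tapbp* lies 0.0667 Mb from *H2-K1*. Of its 50-base stretches 23.2% occur in another annotated gene, most of them in the gene model *Gm19412*.

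The other genes of peptide loading and trimming were written as a list of 8, all listed (*Calr*, *Canx*, *Pdia3*, *Tapbpl*, *Erap1*, *Lnpep*, *Npepps* and *Tpp2*). In *Fzd3* mutants 2 rose (*Canx* and *Pdia3*) and 0 fell (25%, against 29.8% of all genes), with a median log2 fold change of 0.04, in *Celsr3* mutants limma called 0 and 0 had an unadjusted P under 0.05, and between the mutants 2 were higher in *Fzd3* mutants (*Canx* and *Calr*, 25%, against 29.6% of all genes). *Canx*, or calnexin, which folds new heavy chains, was at 343, 335 and 358 (controls), 368, 394 and 394 (*Fzd3* mutants) and 332, 314 and 338 CPM (*Celsr3* mutants). The *Fzd3* mutants were above all other libraries. The rise from control was small (log2 fold change 0.16 with a standard error of 0.0448, limma adjusted P = 0.0211) and was lost in 6 of 19 alternative fits, among them those without control 1 or 2 or *Fzd3* mutant 2 or 3 (limma adjusted P up to 0.0771). The rise of *Pdia3* (0.17, limma adjusted P = 0.041) was lost without any 1 control or any 1 *Fzd3* mutant (limma adjusted P up to 0.133), so that without control 1, 0 of the 8 passed. Between the mutants, the difference of *Canx* (0.23, limma adjusted P = 0.00315) held in 19 of 19 alternative fits, and that of *Calr* (0.20, limma adjusted P = 0.0349) was lost without any 1 *Fzd3* mutant and without *Celsr3* mutant 1 or 2 (limma adjusted P up to 0.131).

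*Psmb10* encodes a catalytic subunit of the immunoproteasome, the form that interferon brings about (XLOC_032661, chromosome 8, 105935735 to 105938444, minus strand). It was at 4.18, 4.80 and 6.57 (controls), 6.34, 7.47 and 4.85 (*Fzd3* mutants) and 5.88, 4.84 and 5.10 CPM (*Celsr3* mutants). The 3 genotypes overlapped, and no comparison passed the test (log2 fold changes 0.24, 0.04 and 0.20, standard error 0.176 each, limma adjusted P = 0.323, 1 and 0.418, in the order given for *Tapbp*). It shares no 50-base stretch with another annotated gene.

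The constitutive catalytic subunits, which the immunoproteasome subunits replace, were far more abundant. Per kb of exon, *Psmb5* was at 69.7 ± 2.19 CPM, *Psmb6* at 52.0 ± 2.62 CPM and *Psmb7* at 58.1 ± 1.72 CPM in controls (s.d., n = 3), against 3.04 CPM per kb for *Psmb10*. *Psmb5* was at 60.5, 63.3 and 64.2 (controls), 55.5, 53.7 and 54.8 (*Fzd3* mutants) and 65.0, 61.4 and 63.0 CPM (*Celsr3* mutants). The *Fzd3* mutants were below all other libraries, and the fall held in 19 of 19 alternative fits (log2 fold change -0.20 with a standard error of 0.0447, limma adjusted P = 0.00767). *Psmb7* was lower in *Fzd3* than in *Celsr3* mutants (-0.15 on the log2 scale, with a limma adjusted P of 0.0145), which was lost without *Fzd3* mutant 1 (limma adjusted P up to 0.0639 over 19 alternative fits), and did not pass against controls (-0.10, limma adjusted P = 0.071). *Psmb6* passed in no comparison (-0.03, 0.08 and -0.11, limma adjusted P = 0.678, 0.994 and 0.12).

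The list of other 20S proteasome subunits and activators held 17 genes, all listed. In *Fzd3* mutants 5 fell (*Psme4*, *Psme3*, *Psmb1*, *Psmb3* and *Psmb2*) and 0 rose (29.4%, against 29.8% of all genes), with a median log2 fold change of -0.06, in *Celsr3* mutants limma called 0 and 0 had an unadjusted P under 0.05, and between the mutants 4 were lower in *Fzd3* mutants (*Psme4*, *Psmb1*, *Psme3* and *Psmb3*) and 0 higher (23.5%, against 29.6% of all genes). Between the mutants the call of *Psmb3* (-0.15, limma adjusted P = 0.0189) was lost without *Fzd3* mutant 1 or *Celsr3* mutant 1 or 2, and with the library number as a block (limma adjusted P up to 0.0738 over 19 alternative fits). That of *Psme4* (-0.33, limma adjusted P = 0.00701) was lost with the library number as a block (limma adjusted P = 0.0539) and held in 18 of 19 alternative fits. *Psme3*, a nuclear proteasome activator, was at 132, 139 and 133 (controls), 108, 110 and 114 (*Fzd3* mutants) and 127, 133 and 131 CPM (*Celsr3* mutants). The *Fzd3* mutants were below the rest (log2 fold change -0.28 with a standard error of 0.0408, limma adjusted P = 0.000593). *Psme1* and *Psme2*, the activator that interferon induces, did not pass in *Fzd3* mutants (log2 fold changes 0.11 and 0.01, limma adjusted P = 0.125 and 0.915). Against controls, the calls of *Psme4*, *Psme3* and *Psmb1* held in 19 of 19 alternative fits. That of *Psmb3* (-0.15, limma adjusted P = 0.0192) was lost without control 3 or *Fzd3* mutant 1, and with the library number as a block (limma adjusted P up to 0.0745). That of *Psmb2* (-0.13, limma adjusted P = 0.0274) was lost without any 1 control or *Fzd3* mutant 1 or 2 (limma adjusted P up to 0.0971).

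Regulators of class I transcription and interferon signalling were written as a list of 20, of which 17 were listed. *Nlrc5*, the class I transactivator, *Irf8* and *Irf9* were not analysed here. In *Fzd3* mutants 5 rose (*Stat2*, *Jak2*, *Ifnar2*, *Jak1* and *Ifnar1*) and 1 fell (35.3%, against 29.8% of all genes in either direction). The median log2 fold change over the list was 0.03. In *Celsr3* mutants limma called 0. Between the mutants, 4 were higher and 1 lower in *Fzd3* mutants (29.4%, against 29.6% of all genes in either direction). *Stat2*, which carries type I interferon signals, was at 36.5, 35.6 and 37.0 (controls), 45.0, 46.5 and 43.7 (*Fzd3* mutants) and 34.1, 33.4 and 35.4 CPM (*Celsr3* mutants). The *Fzd3* mutants were above every other library (log2 fold change against control 0.31 with a standard error of 0.0496, limma adjusted P = 0.00114). This call, and that of the kinase *Jak2* (0.21, limma adjusted P = 0.0013), held in 19 of 19 alternative fits. Those of *Jak1* (0.16, limma adjusted P = 0.0171), *Ifnar1* (0.13, limma adjusted P = 0.0295) and *Ifnar2* (0.20, limma adjusted P = 0.0423) were lost in 2, 7 and 10 of 19. Without control 1, 3 of the 17 rose and 1 fell. *Irf1*, which binds motifs of the AANTGAAA type, was at 0.116 to 1.29 CPM in the 9 libraries and passed in no comparison. *Jak1* lost its call without control 2 or *Fzd3* mutant 1 (limma adjusted P up to 0.0744), *Ifnar1* without control 1 or 3 or *Fzd3* mutant 2 or 3 (up to 0.103), and *Ifnar2* without any 1 library other than control 2 and *Fzd3* mutant 3 (up to 0.155).

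Genes that interferon induces were mostly outside the table, with 5 of the 34 written listed (*Ifit2*, *Ifitm2*, *Ifitm3*, *Ddx58* and *Trim25*). In *Fzd3* mutants 1 rose (*Ifit2*) and 1 fell (*Ifitm2*), where 29.8% of all genes passed. In *Celsr3* mutants limma called 0, with 1 at an unadjusted P under 0.05, as were 800 of all 14670 genes. Between the mutants 1 was lower in *Fzd3* mutants (*Ifitm2*) and 0 higher, where 29.6% of all genes passed. *Ifitm2*, a membrane protein that restricts viral entry, was at 14.2, 14.8 and 14.6 (controls), 12.1, 12.3 and 10.4 (*Fzd3* mutants) and 14.6, 15.5 and 14.3 CPM (*Celsr3* mutants). The *Fzd3* mutants were below the rest (log2 fold change against control -0.32 with a standard error of 0.0815, limma adjusted P = 0.0133), in 19 of 19 alternative fits. The rise of *Ifit2* (0.33, limma adjusted P = 0.0455) was lost in 11 of 19, that is without any 1 library other than control 3 and *Fzd3* mutant 3 among the fits that leave out 1 (limma adjusted P up to 0.165). Of 10 genes of MHC class II, found on antigen-presenting cells, 1 was listed, *H2-DMa*, with a mean of 1.55 ± 0.650 (controls), 2.09 ± 0.291 (*Fzd3* mutants) and 2.85 ± 0.214 CPM (*Celsr3* mutants; s.d., n = 3), and it passed in no comparison of the 9 libraries. Without control 3 it passed in both mutants against controls, with a limma adjusted P of 0.0466 in *Celsr3* mutants and 0.0204 in *Fzd3* mutants.

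**Figure D5:**
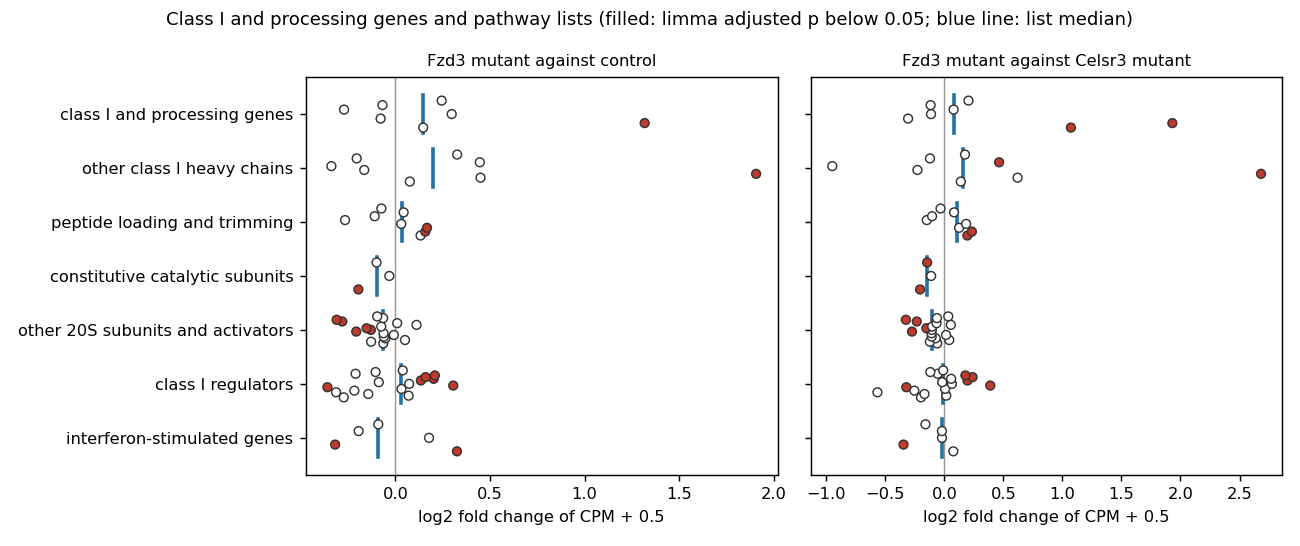
Log2 fold changes of the 7 listed genes and of 6 pathway lists in *Fzd3* mutants against controls and against *Celsr3* mutants (1 point per gene, filled where the limma adjusted P was below 0.05), with list medians as blue lines, on the scale of log2(CPM + 0.5). *H2-D1* (1.32 and 1.93) and *H2-T10* (1.91 and 2.68) lay far to the right, while most genes of the proteasome and regulator lists lay within 0.4 of 0.

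For each member, the genes most like it were taken as the 3 with the highest Pearson correlation of log2(CPM + 0.5) over the 9 libraries, among the 14381 genes that averaged 1 CPM or more. Such high values arise among so many genes when only 9 libraries in 3 genotypes are compared, and they are given as a description. The gene most like *H2-K1* was *Cyp4f16* (r = 0.977), which also lies on chromosome 17, 1.44 Mb from it, before *Golt1b* (0.961) and *Idh1* (0.945). *Cyp4f16* was at 17.2, 14.1 and 16.3 (controls), 16.6, 15.6 and 15.7 (*Fzd3* mutants) and 14.4, 8.89 and 9.60 CPM (*Celsr3* mutants). Like *H2-K1*, it was lowest in *Celsr3* mutants 2 and 4, while *Celsr3* mutant 1 was within the range of the controls. Those most like *H2-D1* were *Ccdc112* (0.977), *BC023719* (0.974) and *C330006A16Rik* (0.974), of which *BC023719* lies in the H2 region. For *H2-T23* they were *Intu* (0.936), *Shroom4* (0.931) and *Wnk4* (0.916), for *B2m* *Snx9* (0.942), *Col4a2* (0.936) and *Itm2a* (0.923), and for *Tap1* *Slc8a3* (0.957) and *Gm15283* (0.915). *Tapbp* was most like *Tmem237* (0.976), *Ndufb4* (0.945) and *Usp30* (0.923), and *Ppp2cb* (0.955) and *Lamp1* (0.945) were among those like *Psmb10*. *Col4a2*, a collagen of basement membranes, was at 98.6 CPM in *Celsr3* mutant 4 and 79.8 CPM in *Fzd3* mutant 1, the libraries with the highest *B2m*, and at 62.9 to 70.6 CPM in the other 7.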

How the data were processed

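The authors deposited 1 table of CPM values for 14670 genes in 9 libraries of E16.5 cortex, made by a sequencing company. The submitters' processing notes name FastQC, Bowtie, TopHat, TopHat2, Cufflinks 2.1.1 and edgeR 2.12 and the builds GRCm38 and GRCh37, without roles. Strand use is not given in the sources used here. Columns totalled 990141 to 1012199 CPM, the lowest gene mean was 0.540 CPM, and 0 columns were left unused. In each library 100% of values were whole multiples of the step taken as 1 read, within 0.1 read. No pair of libraries of a genotype repeated the same reads, with median differences of 4.59 to 9.73 times sampling noise. CPM are not counts, and count tests were not used.

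The fit of log2(CPM + 0.5) used limma 3.58.1 (lmFit, contrasts, eBayes with trend) under R 4.3.3, with 3 libraries per genotype, and was tested on simulated data. All genes averaged 0.5 CPM or more and were kept. Tables and figures used Python 3.11.15, numpy 2.4.6, pandas 2.3.3, scipy 1.17.1 and matplotlib 3.10.9. Symbols of 13763 of the 14670 genes matched GENCODE M21 (GRCm38), which gave positions, exon lengths and shared 50-base stretches, and promoters came from RefSeq (GRCm38.p6). The members and lists were chosen with earlier results of these data known. Genes named were the 10 members, *Fzd3* and *Celsr3*, list genes past the threshold, the 3 constitutive catalytic subunits, the 3 largest changes past the threshold among the neighbours in the H2 region in each comparison and the 3 genes most like each member. Some results under these rules are not reported here, so that lists of genes and counts of genes that rose or fell are not complete. Other genes named were picked with their values in view. The alternative fits changed the pseudocount, the filter, the scaling, the libraries in the fit, a block, or the variance trend, or left out each library in turn, and 1 fit without control 1 and *Celsr3* mutant 4 was added after seeing the data.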

Additional observations from a re-analysis of the deposited data

Results flagged for a closer look

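The difference of each mutant from control had opposite signs for *H2-D1* (log2 fold change 1.32 in *Fzd3* mutants and -0.61 in *Celsr3* mutants), and the direct test of the mutants against each other passed, at 1.93 (limma adjusted P = 0.000445). The same held for *H2-K1*, with 0.15 in *Fzd3* mutants and -0.92 in *Celsr3* mutants, and 1.07 in the direct test (limma adjusted P = 0.00526). The sign in *Fzd3* mutants is uncertain for *H2-K1*, since the 0.15 had a standard error of 0.227 and was -0.03 without control 2. Of the 4 differences from control, that of *H2-D1* in *Fzd3* mutants passed the test and the other 3 did not. All 3 *Fzd3* mutant libraries were above all 3 *Celsr3* mutant libraries for both genes. Control 1, which was high for *H2-D1* (13.7 CPM), does not enter the difference between the mutants except through the shared estimate of the spread, and without it the values were 1.93 for *H2-D1* and 1.07 for *H2-K1*. The strain origin of the H2 region in these embryos is not given in the sources used here, and its part in these differences was not tested.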

How the results depend on the processing

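No member reversed a called direction under any alternative. Between *Fzd3* mutants and controls, 4366 genes passed, 2958 to 4312 with 1 library left out, and 1 member (*H2-D1*) passed in every alternative. Between *Celsr3* mutants and controls, 45 genes passed, 39 to 53 with 1 library left out, and 0 to 1 members, the 1 being *H2-K1* without *Celsr3* mutant 1. Between the mutants, 4346 genes passed, 2971 to 4471 with 1 library left out, and 2869 without control 1 and *Celsr3* mutant 4, an alternative chosen after seeing the data. There 2 members passed in each alternative except a filter at a mean of 5 CPM, which left 1 because it removed *H2-K1*, together with *H2-T23* and *Tap1*, which have no value under it. With the library number as a block, 3629, 29 and 2101 genes passed in the same order. *Celsr3* mutant 4 is the only library with its number, so that under the block it adds nothing to the comparisons with the *Celsr3* mutants. Deviations of same-numbered libraries correlated between -0.199 and 0.192, so the numbers did not pair the libraries, and the block changed no call of a member. The causes of these changes in counts were not tested, apart from the smaller number of libraries where some are left out. *Tap1* rests on the fewest reads, 46 to 89 per library.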

Other observations

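Outside the H2 region, 562 further genes of chromosome 17 were listed, and 10 of them differed between *Celsr3* mutants and controls, all higher (limma, 1.78%, against 0.307% of all genes). They made up 10 of the 19 genes higher in that comparison. These genes, looked at after their values were seen, lie between 6256860 and 7979824 (GRCm38), 25.4 Mb from the H2 region, and include 4 genes named *Dynlt1* with a letter and 3 of the *Tmem181* group, related copies for which the sharing of reads was not measured. Their log2 fold changes were 0.39 to 0.83.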
